A study of Mus musculus with 405 samples.

Results

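Pyrethroids are synthetic insecticides modelled on the natural esters of chrysanthemum flowers, and 12 of them were among the 297 chemicals tested on mouse cortical cultures. They were found by name, as every chemical whose label contains "thrin", fenvalerate or fluvalinate, and each was represented by 1 library of the 393 in the expression table. 10 of them had been given at 10 µM and were compared with one another and with 49 vehicle libraries. Of these, cyfluthrin, cypermethrin, esfenvalerate and fenpropathrin carry a cyano group on the carbon that joins the acid to the alcohol, whereas bifenthrin, permethrin, prallethrin, resmethrin, S-Bioallethrin and tetramethrin do not. The remaining pair, d-cis,trans-Allethrin at 1 µM and tefluthrin at 0.1 µM, also lack the cyano group and are described apart because their concentrations differed.

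Pyrethroids bind voltage-gated sodium channels and slow their closing, so that a nerve cell fires repeatedly or stays depolarized. Compounds with the cyano group generally hold the channel open for longer than those without it, and the distinction between both classes is a standard one in toxicology. In neurons, calcium entry during firing switches on immediate early genes such as Fos and Npas4, which encode transcription factors, and later a set of genes for secreted peptides and growth factors.

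All cultures came from hybrid embryos of the label "CAST x C57BL6" (C57BL/6J dams, CAST/EiJ sires) taken on embryonic day 15 according to the labels, and vehicle and treated wells shared an antimitotic nucleoside mixture added on day 3 in vitro. Each chemical was added on day 7 in vitro for 24 h at a concentration the study held to be non-cytotoxic, the vehicle was DMSO, and polyadenylated RNA was sequenced. The cultures were dissociated cortex and not purified neurons, so glia were present too, and no vehicle library was matched by its label to a given compound. With 1 library for each compound, tests of a class use a spread pooled over the vehicle libraries and the compounds within each class, which comes mostly from the 49 vehicle libraries, and tests of a single compound assume that its library varies as the vehicle libraries do.

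The values are deviations: each gene was centred on its own median over the screen before deposit, so a value of 0 is the typical library and a value of 1 is a doubling relative to it on the log2 scale used throughout. Levels of different genes therefore cannot be compared, and depth is unknown. All 12 neuron markers on a fixed list were among the 13304 genes measured, of which the table holds those detected in nearly all libraries. The SD over genes of a pyrethroid library lay between 0.36 and 0.48, against 0.27 to 0.52 in vehicle libraries, so no pyrethroid library stood outside the vehicle range. Between 4 and 12 genes of a pyrethroid library had values below -3, and between 1 and 14 genes of a vehicle library. Such values belong to single libraries and may come from very few reads, which could not be examined without counts.

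Taken singly, the pyrethroids differed widely in how many genes they changed. Fenpropathrin changed 658 genes relative to vehicle (4.95% of those measured, 275 higher, 2.07%, and 383 lower, 2.88%; limma with Benjamini-Hochberg adjustment, threshold 0.05). The next were bifenthrin with 48 genes (0.361%), S-Bioallethrin with 32 (0.241%), cyfluthrin with 29 (0.218%) and esfenvalerate with 15 (0.113%). Permethrin and resmethrin each changed 8 (0.0601% each), cypermethrin 5 (0.0376%) and prallethrin 1 (0.00752%). For tetramethrin no gene passed the test.

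**Figure D1:**
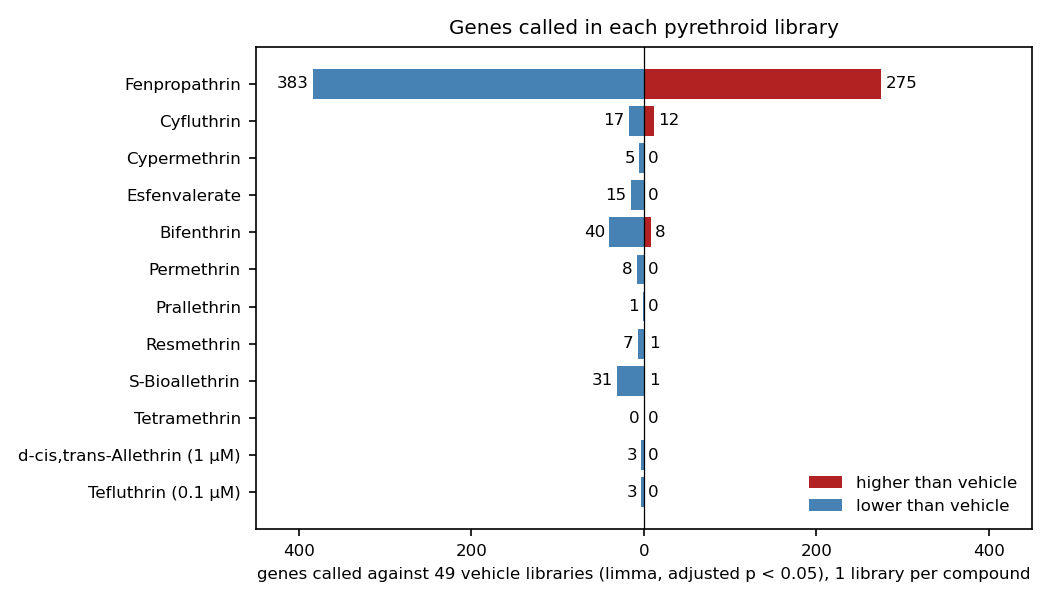
Number of genes called higher (red, right) or lower (blue, left) in the single library of each pyrethroid against 49 vehicle libraries, by limma at an adjusted p of 0.05. Fenpropathrin stands alone with 275 higher and 383 lower, and in each other compound with a call more genes are lower than higher.

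Some of these single-library calls were very low values. Of the 15 genes lower with esfenvalerate, 11 had values below -2, among them Mrps11, a mitochondrial ribosomal protein gene, at -4.66. Of the 40 genes lower with bifenthrin 7 had such values, and of the 383 lower with fenpropathrin 23. Values below -2 also occurred among the lower calls of every other compound with a call. Most lower calls with resmethrin and cypermethrin were such values, as was the single call with prallethrin. Whether few reads lay behind such values was not tested. Bifenthrin raised Jun, a stress- and activity-responsive transcription factor, by 0.84 ± 0.17 (SE, adjusted p = 0.0102), and the cell-death genes Bbc3 by 0.97 ± 0.23 (adjusted p = 0.0366) and Hrk by 0.84 ± 0.20 (adjusted p = 0.0412). S-Bioallethrin raised Axl, a receptor tyrosine kinase, by 1.27 ± 0.30 (adjusted p = 0.0436), and resmethrin raised Jak3, a cytokine-receptor kinase, by 2.29 ± 0.45 (adjusted p = 0.0191). These adjusted p-values come from limma fits over all genes and refer to vehicle. Against the other chemicals of the screen none of the rises with bifenthrin or S-Bioallethrin passed.

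When the 10 compounds at 10 µM were treated as a group, 644 genes differed from vehicle (4.84%), of which 221 were higher (1.66%) and 423 lower (3.18%). The 4 cyano compounds differed from vehicle in 423 genes (3.18%; 146 higher, 1.1%, and 277 lower, 2.08%), and the 6 compounds without a cyano group in 7 genes (0.0526%; 2 higher, 0.015%, and 5 lower, 0.0376%). Single compounds moved these counts. For cyano pyrethroids against vehicle the count was 4 without fenpropathrin, without cyfluthrin 99 and without esfenvalerate 732. In the class without the cyano group it was 51 without tetramethrin, 2 without resmethrin, and 0 without bifenthrin or without S-Bioallethrin. For the 10 compounds together the count was 276 without fenpropathrin, 321 without cyfluthrin and 399 without bifenthrin.

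The direct comparison of cyano with no cyano compounds asked whether the classes differed from each other. No gene passed the test in limma (0% called, smallest adjusted p = 0.31), and 834 genes (6.27%) had an unadjusted p under 0.05. Without esfenvalerate 22 genes passed, 11 higher and 11 lower in the cyano class. An exact two-sided permutation test over the 210 ways of splitting the 10 libraries, which can reach a p of 0.00952, was run for 19 genes, the activity genes and sodium channel genes fixed for it. It gave a p below 0.05 for 1 of them, Fosb (difference 1.19, exact p = 0.0476), whose limma adjusted p was 0.731, and both classes overlapped for all 19. The exact p-values were not adjusted for the 19 genes, and chance alone gives up to about 1 in 20 below 0.05. A larger number of genes called against vehicle in the cyano class than in the other class is not by itself a difference between the classes.

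Expression of several activity-regulated genes, though not all, was highest with fenpropathrin and cyfluthrin. Fos (mm9 12:86814840-86818223), the founding immediate early gene, stood at 2.60 with fenpropathrin, 1.69 with cyfluthrin, 0.73 with cypermethrin and -0.62 with esfenvalerate. In the 6 libraries without a cyano group its values ran from 0.14 to 0.95 with a median of 0.28, and in vehicle libraries from -1.71 to 2.52 with a median of 0.054. Only fenpropathrin lay above all vehicle libraries, and esfenvalerate was the only one of the 10 below the vehicle median. The mean difference of 0.64 ± 0.25 over 10 compounds did not pass (adjusted p = 0.126), nor did that of the cyano class (1.05 ± 0.37, adjusted p = 0.0984), while fenpropathrin alone did (2.55 ± 0.68, adjusted p = 0.0151).

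Npas4, which encodes a transcription factor induced almost exclusively by calcium entry, had a similar order. Its values were 2.66 with fenpropathrin, 1.70 with cyfluthrin, 0.47 with cypermethrin and -0.64 with esfenvalerate, against -0.11 to 1.24 (median 0.57) without the cyano group and -1.40 to 2.44 (median 0.13) in vehicle libraries. The difference for fenpropathrin was 2.57 ± 0.62 (adjusted p = 0.007), and that over 10 compounds was 0.68 ± 0.23 (adjusted p = 0.0796). Nr4a1, a nuclear receptor of the same early class, was at 1.65 with fenpropathrin, where the highest vehicle library was at 1.51, and between -0.49 and 0.74 in the other 9. Fosb was equally high with cyfluthrin and fenpropathrin (1.52 each), within the vehicle range of -2.28 to 2.01. By contrast Arc, a synaptic early gene, was near the vehicle median of 0.027 with fenpropathrin (0.059) and was lowest with S-Bioallethrin (-1.80), below all vehicle libraries.

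Of 32 transcription factor genes of the immediate early list, 3 rose and 2 fell over the 10 compounds (list median 0.16, all genes -0.011), where 4.84% of all genes were called. Atf3, a stress- and injury-induced factor, rose by 0.87 ± 0.23 (adjusted p = 0.0149), Crem, a regulator of cyclic AMP responses, by 0.49 ± 0.15 (adjusted p = 0.0377) and the clock gene Per1 by 0.48 ± 0.12 (adjusted p = 0.00989). Egr3 fell by 0.76 ± 0.17 (adjusted p = 0.00351) and its relative Egr1 fell by 0.45 ± 0.12 (adjusted p = 0.0129). Atf3 was above the vehicle median of -0.125 in 10 of 10 libraries, with 1.86 for fenpropathrin, 1.51 for cyfluthrin and 1.16 for bifenthrin, and Egr3 was below its vehicle median of 0.386 in 10 of 10. Without fenpropathrin, and likewise without cyfluthrin, limma called 0 members of the list higher and 2 lower. Egr1 was no longer called without S-Bioallethrin (adjusted p = 0.0692), and Egr3 was called against vehicle whichever compound was left out. Against the other chemicals 1 of the 32 passed for the pyrethroids, higher, and 0 were lower, so neither fall passed there. In those chemicals 0 of the 32 were called against vehicle, where 5.25% of all genes were.

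In the fenpropathrin library alone 13 of the 32 were called, 11 higher and 2 lower, where 4.95% of all genes were called. Beside Fos, Npas4 and Nr4a1, the other members of the Nr4a family rose, Nr4a2 by 1.37 ± 0.32 (adjusted p = 0.00468) and Nr4a3 by 1.55 ± 0.36 (adjusted p = 0.00498). Crem rose by 1.95 ± 0.38 (adjusted p = 0.000808) and Nfil3, a leucine zipper factor, by 1.24 ± 0.25 (adjusted p = 0.00102). Myc fell by 1.22 ± 0.25 (adjusted p = 0.00102) and Klf10 fell by 1.15 ± 0.36 (adjusted p = 0.0447). In the cyfluthrin library only Per1 of this list was called (1.31 ± 0.29, adjusted p = 0.029), in bifenthrin only Jun, and in S-Bioallethrin only Egr1, which fell by 1.48 ± 0.28 (adjusted p = 0.0105). The list median stood at 0.68 with fenpropathrin and 0.62 with cyfluthrin, above the highest vehicle library (0.51), and at -0.21 with esfenvalerate, the lowest of the 10.

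**Figure D2:**
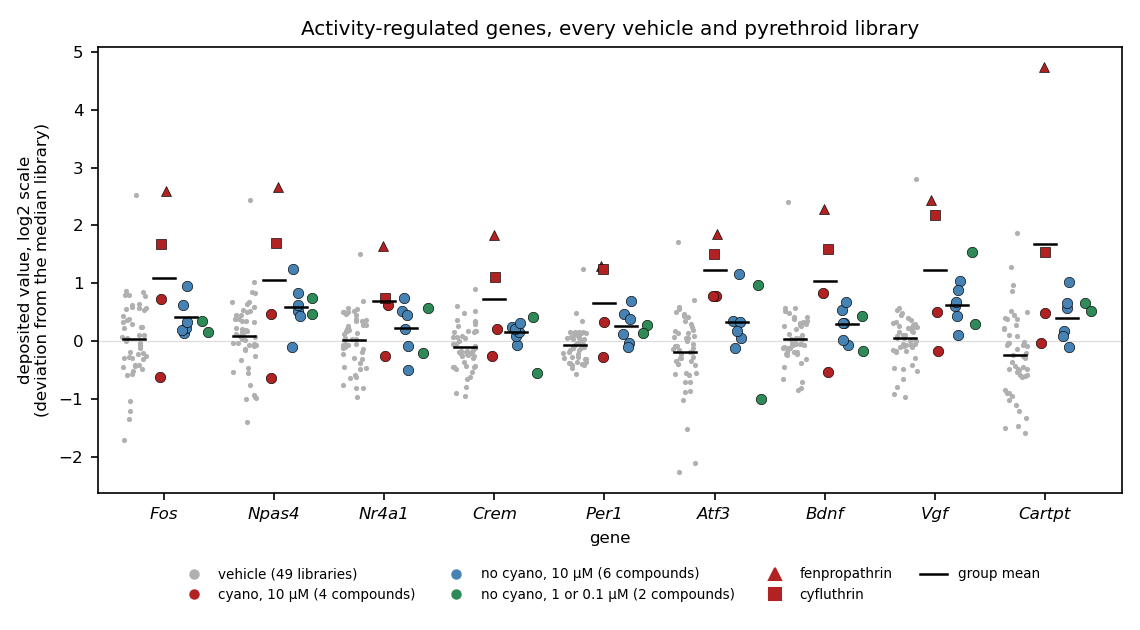
Deposited values on the log2 scale (vertical axis) of 9 activity-regulated genes in each vehicle library (grey) and each pyrethroid library, by class (cyano red, no cyano blue, lower concentrations green), with group means as bars. Fenpropathrin (triangles) holds the highest pyrethroid value for all 9 genes plotted (Fos, Npas4, Nr4a1, Crem, Per1, Atf3, Bdnf, Vgf and Cartpt), and cyfluthrin (squares) lies beside or below it. The vehicle libraries spread widely, up to 2.80 for Vgf. Of the fixed activity genes, Fosb, Arc, Egr1 and Crh are not plotted. Relative to vehicle, fenpropathrin was below cyfluthrin for Arc (0.0995 against 0.643) and Egr1 (-0.223 against 0.395). It was level with cyfluthrin for Fosb (1.52 against 1.53) and above it for Crh (3.05 against 1.46).

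Activity-induced genes of other kinds were measured too. Of 33 activity-induced effector genes measured, 5 rose and none fell over the 10 compounds (list median 0.13), where 1.66% of all genes were higher and 3.18% lower. They were Dusp1, a phosphatase that switches off MAP kinases (0.46 ± 0.12, adjusted p = 0.016), Ppp1r15a, which restores translation after stress (0.38 ± 0.08, adjusted p = 0.00344), Spry4, an inhibitor of growth factor signalling (0.55 ± 0.15, adjusted p = 0.0196), Nrn1, a neurite growth factor (0.24 ± 0.07, adjusted p = 0.0392), and Syt4, a vesicle protein (0.23 ± 0.06, adjusted p = 0.0234). In the other chemicals 3 of the 33 were higher than vehicle, where 1.9% of all genes were. Against those chemicals 1 of the 33 passed for the pyrethroids, higher. Bdnf, the activity-dependent neurotrophin, was at 2.29 with fenpropathrin, 1.59 with cyfluthrin, 0.83 with cypermethrin and -0.53 with esfenvalerate. In the compounds without cyano it ran from -0.065 to 0.68, and the vehicle libraries covered -0.84 to 2.41. It rose with the cyano class (1.00 ± 0.27, adjusted p = 0.0257) and did not pass for the 10 compounds (0.56 ± 0.19, adjusted p = 0.0707). Without fenpropathrin its difference in the cyano class was 0.59 (adjusted p = 0.513).

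Of the secreted peptides, Cartpt (mm9 13:100668439-100670638), which encodes the neuropeptide precursor CART, was at 4.73 with fenpropathrin, 1.54 with cyfluthrin, 0.48 with cypermethrin and -0.027 with esfenvalerate. Compounds without the cyano group ran from -0.091 to 1.02 (median 0.37) and vehicle libraries from -1.59 to 1.88 (median -0.25). All 10 were thus above the vehicle median, and fenpropathrin was far above every vehicle library (4.97 ± 0.70, adjusted p = 4.45e-06). Over the 10 compounds Cartpt rose by 1.15 ± 0.30, a fold of 2.23 (adjusted p = 0.0132), and against all other chemicals by 1.01 ± 0.28 (adjusted p = 0.0369). The rise against vehicle was no longer called without fenpropathrin, when it was 0.73 (adjusted p = 0.101).

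Vgf (mm9 5:137506165-137509221), a neurotrophin-induced secreted protein, had 2.44 with fenpropathrin, 2.18 with cyfluthrin, 0.50 with cypermethrin and -0.16 with esfenvalerate, and 0.11 to 1.04 (median 0.64) without the cyano group. Vehicle libraries ran from -0.97 to 2.80 with a median of 0.053, so every pyrethroid value lay inside that range while 9 of 10 were above its median. Vgf rose by 0.82 ± 0.20, a fold of 1.76, against vehicle (adjusted p = 0.01) and by 0.70 ± 0.17 against the other chemicals (adjusted p = 0.0141). Against vehicle the difference was 0.64 without fenpropathrin (adjusted p = 0.0702) and 0.67 without cyfluthrin (adjusted p = 0.0559), neither of which passed. Of 19 measured genes of this list (median 0.23) Vgf and Cartpt rose and Nptx1, a synaptic pentraxin, fell by 0.32 ± 0.09 (adjusted p = 0.0189, and 0.0927 without S-Bioallethrin). Over all genes 4.84% were called for the 10 compounds and 4.95% in the fenpropathrin library. With fenpropathrin alone 10 of the 19 were called, 8 higher and 2 lower. They included Tac1, the substance P precursor, by 3.03 ± 0.62 (adjusted p = 0.00126), Crh, corticotropin-releasing hormone, by 3.05 ± 0.83 (adjusted p = 0.0194) and Adcyap1, the PACAP precursor, by 1.80 ± 0.44 (adjusted p = 0.00714). The cortical peptide Cck fell by 1.46 ± 0.37 (adjusted p = 0.0112).

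10 genes of these 3 activity lists rose over the 10 compounds, and the cyclic AMP response element, TGACGTCA, was looked for in their RefSeq promoters because it is the textbook site through which firing reaches such genes. The sequence reads the same on both strands, and the window ran from 250 bases before to 50 after the start site (build GRCm38.p6). Promoters were on hand for 5 of the 10, and 3 of these genes held the element. Counted by promoter and not by gene, 588 of 32851 in all held it (1.79%). The lists had been drawn up as activity genes, so the element could be anticipated in them. List members that did not rise were not searched, and what raised these genes was not tested. The 30 bases around each are shown 5′ to 3′ on the gene's strand, with the element in capitals.
Cartpt, 13:99900777-99900806, minus strand: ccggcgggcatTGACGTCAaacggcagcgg
Dusp1, 17:26508597-26508626, minus strand: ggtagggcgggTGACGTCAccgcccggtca
Ppp1r15a, 7:45526269-45526298, minus strand: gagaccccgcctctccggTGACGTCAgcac
The element began 112 bases before the start site in Cartpt, 143 in Dusp1 and 12 in Ppp1r15a. The windows of Atf3 and Per1 held no such run of letters, which says nothing of the factors that bind there.

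Voltage-gated sodium channels are the pyrethroid target itself. Of 15 voltage-gated sodium channel genes 10 were measured (list median -0.057 over the 10 compounds). Limma called none of them in the class comparisons or in any single library. Over the 10 compounds 4.84% of all genes were called, so none among 10 genes is close to that share. In the other chemicals 2 of these genes were lower than vehicle. Scn2a1, the main channel of young excitatory neurons, was below the vehicle median of 0.060 in 7 of 10 libraries, from -0.23 with fenpropathrin to 0.19 with resmethrin, and below all vehicle libraries in 3. Its mean difference was -0.096 ± 0.039 (unadjusted p = 0.0177 and adjusted p = 0.155 in limma). Scn8a, the main channel of the mature axon, differed by -0.094 ± 0.060 (adjusted p = 0.43) and Scn3a, an embryonic form, by -0.14 ± 0.05 (adjusted p = 0.149). For the channels Scn1a and Scn9a and the subunits Scn2b, Scn3b and Scn4b, mean differences lay between -0.11 for Scn2b and 0.18 for Scn4b. The unadjusted 95% interval for Scn2a1 was -0.175 to -0.0173, and that for Scn9a was -0.305 to 0.541, so a small change in Scn9a could not have been seen. Of 12 genes for channel partners 1 passed, where 4.84% of all genes did, and it was Fgf13, which binds the channel's tail and fell by 0.18 ± 0.05 (adjusted p = 0.0256).

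Potassium channel genes, which set how fast a neuron repolarizes, were called lower where they were called. Over the 10 compounds 9 of 70 fell and none rose (list median -0.088), where 3.18% of all genes were lower and 1.66% higher. Kcnh3 (mm9 15:99055292-99073248), a voltage-gated channel of forebrain neurons, was at -1.88 with fenpropathrin, -1.03 with cyfluthrin, -0.48 with esfenvalerate and -0.31 with cypermethrin. Without the cyano group it ran from -1.23 with S-Bioallethrin to 0.15 with tetramethrin, and vehicle libraries ran from -0.49 to 0.65 with a median of 0.15. All 10 compounds were below the vehicle median and 4 were below every vehicle library. Kcnh3 fell by 0.72 ± 0.13 against vehicle (adjusted p = 0.000411) and by 0.55 ± 0.14 against the other chemicals (adjusted p = 0.0202).

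Kcnv1, a silent potassium channel subunit, fell by 0.47 ± 0.09 (adjusted p = 0.00089). Kcnq3, a channel that brakes repeated firing, fell by 0.62 ± 0.17 (adjusted p = 0.0208). Kcnq3 was lowest with fenpropathrin (-1.86), cypermethrin (-0.58) and cyfluthrin (-0.56), the other 7 lying between -0.082 and 0.66 against a vehicle median of 0.495. Kcnh3 and Kcnv1 were called whichever compound was left out, whereas Kcnq3 was not called without fenpropathrin (-0.43, adjusted p = 0.163). In the other chemicals the same list had 13 members lower than in vehicle and none higher (3.34% of all genes lower and 1.9% higher), and against them only Kcnh3 passed for pyrethroids. With fenpropathrin and cyfluthrin both left out, 2 of the 70 fell.

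In the fenpropathrin library alone 14 potassium channel genes were called, 11 lower and 3 higher, the higher ones including Kcnj3 (1.44 ± 0.31, adjusted p = 0.00237) and Kcnd2 (0.98 ± 0.27, adjusted p = 0.0232). 5 of 23 genes for GABA-A receptors and chloride channels rose in it, including Gabra2 by 0.93 ± 0.16 (adjusted p = 0.00013) and Gabra4 by 1.05 ± 0.21 (adjusted p = 0.000808). Over all genes of the fenpropathrin library 2.07% were higher and 2.88% lower. In the 10 compounds as a group limma called 0 of these 23 (list median 0.059), where 4.84% of all genes were called.

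Among 15 voltage-gated calcium channel genes 3 fell and 1 rose (list median -0.095), where 4.84% of all genes were called. Cacna1i, a low-threshold channel, fell by 0.32 ± 0.08 against vehicle (adjusted p = 0.00985) and by 0.32 ± 0.07 against the other chemicals (adjusted p = 0.00517). It was below the vehicle median in 10 of 10, from -0.72 with fenpropathrin and -0.67 with bifenthrin to -0.017 with prallethrin. The accessory subunits Cacnb3 and Cacnb4 went opposite ways, Cacnb3 lower by a difference of -0.24 ± 0.06 (adjusted p = 0.0137) and Cacnb4 higher by 0.19 ± 0.06 (adjusted p = 0.0391). Cacna1b, the N-type channel of nerve terminals, fell by 0.17 ± 0.05 (adjusted p = 0.0445). None of these 4 calls held without fenpropathrin, where adjusted p-values ran from 0.0518 for Cacna1i to 0.19 for Cacna1b. Of 15 ionotropic glutamate receptor genes 1 passed, again a share close to the 4.84% over all genes. It was Grik3, a kainate receptor, which fell by 0.31 ± 0.07 (adjusted p = 0.00351).

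The gene with the lowest p-value in the cyano class was Camk4, which encodes a calcium- and calmodulin-dependent kinase of the nucleus and was picked out after its values were seen. It was at -0.85 with fenpropathrin, -0.63 with cyfluthrin, -0.46 with cypermethrin and -0.27 with esfenvalerate, all below the lowest of the 49 vehicle libraries (-0.26). Compounds without the cyano group ran from -0.46 with bifenthrin to 0.15 with tetramethrin, so both classes overlapped. Camk4 fell by 0.69 ± 0.08 with the cyano class (adjusted p = 1.28e-07) and by 0.44 ± 0.06 with the 10 compounds (adjusted p = 1.52e-05). The difference between classes was -0.43 ± 0.10 and did not pass (adjusted p = 0.31). In single libraries it fell with fenpropathrin, cyfluthrin and bifenthrin.

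Sv2b (mm9 7:82259783-82454148), a synaptic vesicle glycoprotein, was among the 7 genes called for compounds without the cyano group, where it fell by 0.40 ± 0.08 (adjusted p = 0.0238). Its values were -1.01 with fenpropathrin, -0.72 with S-Bioallethrin and -0.65 with cyfluthrin, and the highest was 0.045 with esfenvalerate. The vehicle libraries ran from -0.27 to 0.39, and 6 of 10 pyrethroids were below all of them. Over the 10 compounds Sv2b fell by 0.48 ± 0.07 (adjusted p = 1.52e-05), and against other chemicals by 0.33 ± 0.08 (adjusted p = 0.0141). The same class also lowered Lzts1, a postsynaptic scaffold gene, with a difference of -0.38 ± 0.08 (adjusted p = 0.0238), and raised Cntnap3, a neuronal adhesion gene, by 0.69 ± 0.15 (adjusted p = 0.0276), which was above every vehicle library in 5 of the 6. The calls of Sv2b, Lzts1 and Cntnap3 in this class were lost without bifenthrin, without S-Bioallethrin or without resmethrin (adjusted p from 0.0541 to 0.164). In the cyano class Cntnap3 differed by 0.065 ± 0.174 (adjusted p = 0.91), and the difference between classes did not pass (-0.62 ± 0.22, adjusted p = 0.585).

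**Figure D3:**
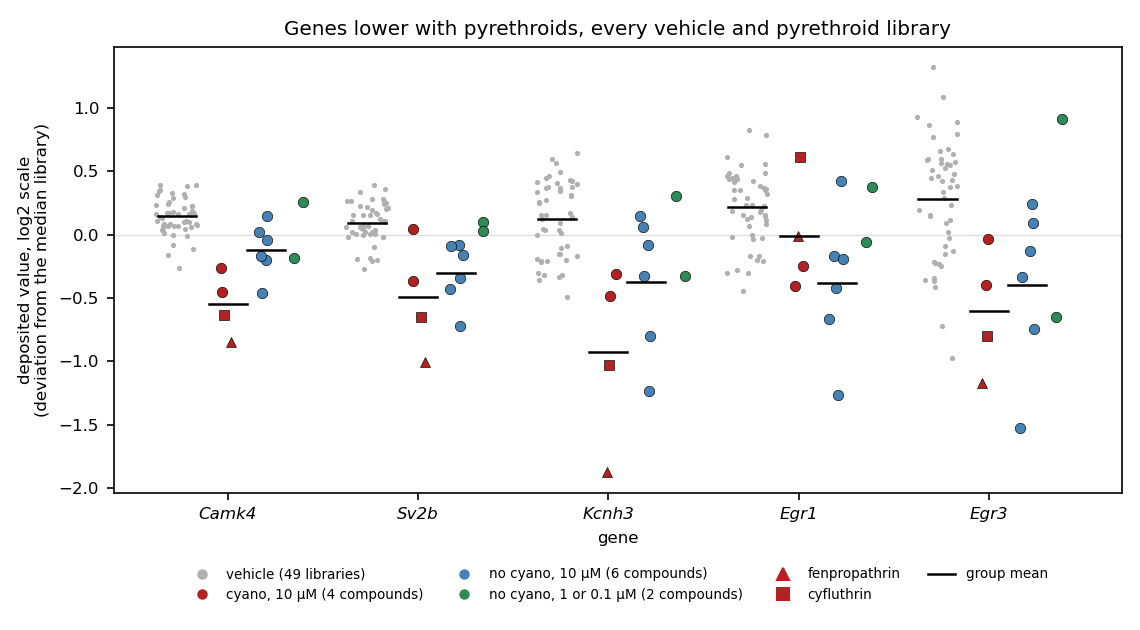
Deposited values on the log2 scale (vertical axis) of 5 genes that were lower with the 10 compounds, in each vehicle library (grey) and each pyrethroid library by class, with group means as bars. All 4 cyano compounds lie below the 49 vehicle libraries for Camk4, and 6 of 10 pyrethroids do so for Sv2b.

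Genes of the integrated stress response, which cells use when amino acids or protein folding run short, were among those that rose in the group. Of 27 measured, 11 rose and none fell (list median 0.30, all genes -0.011), where 1.66% of all genes were higher. Chac1, which degrades glutathione, rose by 0.73 ± 0.15, a fold of 1.66 (adjusted p = 0.00124), and was above the vehicle median of -0.22 in 10 of 10, from -0.11 with permethrin to 1.21 with cyfluthrin. The amino acid transporter genes Slc3a2 and Slc7a5 rose by 0.33 ± 0.06 (adjusted p = 0.000402) and 0.30 ± 0.06 (adjusted p = 0.00109). Slc3a2 was above every vehicle library in 7 of 10 compounds and Slc7a5 in 6. Sesn2, a stress-induced inhibitor of growth signalling, rose by 0.47 ± 0.10 (adjusted p = 0.00235), the serine-synthesis gene Psat1 by 0.30 ± 0.06 (adjusted p = 0.00111) and Atf4, the factor that drives the programme, by 0.31 ± 0.07 (adjusted p = 0.00301).

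The list median was above all vehicle libraries (highest 0.24) with bifenthrin (0.42), cyfluthrin (0.42), fenpropathrin (0.31) and prallethrin (0.24), and was near the vehicle median of -0.039 with resmethrin (-0.044), permethrin (-0.037) and tetramethrin (-0.0071). With fenpropathrin left out 9 of the 27 rose, without cyfluthrin 10, and with both left out 4. The other chemicals of the screen had 9 members higher and 2 lower than vehicle, and against them 0 passed for the pyrethroids in limma. Against the other chemicals at 10 µM alone, a comparison added after the data were seen, 5 of the 27 passed, all higher.

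Cholesterol synthesis genes rose in the group, and the list stood above the vehicle median with every compound. Of 22 measured, 12 rose against vehicle and none fell (list median 0.28, with 1.66% of all genes higher), and the list median was above the vehicle median (-0.074) in 10 of 10 libraries, from 0.017 with cyfluthrin to 0.37 with bifenthrin. No library exceeded the highest vehicle library (0.53). Fdps (mm9 3:88897514-88905881), which makes farnesyl pyrophosphate, ran from 0.19 to 0.68 with a median of 0.31 over the 10 compounds, against -0.998 to 0.71 (median -0.075) in vehicle libraries. Fdps rose by 0.47 ± 0.11, a fold of 1.38 (adjusted p = 0.00619). With fenpropathrin left out 7 of the 22 rose, and with both fenpropathrin and cyfluthrin left out 5.

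Sterol ring formation and its later steps moved likewise. Lss, which closes the sterol ring, rose by 0.41 ± 0.10 (adjusted p = 0.0129), Cyp51, which demethylates lanosterol, by 0.28 ± 0.06 (adjusted p = 0.00134), Sc5d by 0.27 ± 0.05 (adjusted p = 0.00089) and Dhcr7, the last enzyme of the path, by 0.31 ± 0.07 (adjusted p = 0.00753). The feedback regulator Insig1 rose by 0.25 ± 0.07 (adjusted p = 0.034). Between cyano and no cyano compounds the difference was 0.0027 ± 0.139 for Insig1 (95% interval -0.28 to 0.28) and 0.028 ± 0.106 for Cyp51 (-0.18 to 0.24). The other chemicals had 1 member of this list higher than vehicle, and against them 0 passed for the pyrethroids in limma, with a list median difference of 0.21.

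Of 20 genes of the antioxidant response governed by NRF2, 2 rose (list median 0.051, with 1.66% of all genes higher). In the other chemicals 2 of the 20 were higher than vehicle, and against them 0 passed for the pyrethroids in limma. Hmox1 (heme oxygenase) rose by 0.57 ± 0.12 (adjusted p = 0.00163) and Srxn1 by 0.20 ± 0.06 (adjusted p = 0.039). Hmox1 was highest with tetramethrin (1.203), bifenthrin (0.92) and S-Bioallethrin (0.71), above the vehicle maximum of 0.61, and lowest with resmethrin (-0.41). Of the xenobiotic-metabolism list 18 of 41 genes were measured, and 1 passed, a share close to the 4.84% called over all genes. It was Por, the reductase that serves cytochrome P450 enzymes (0.22 ± 0.06, adjusted p = 0.0263).

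**Figure D4:**
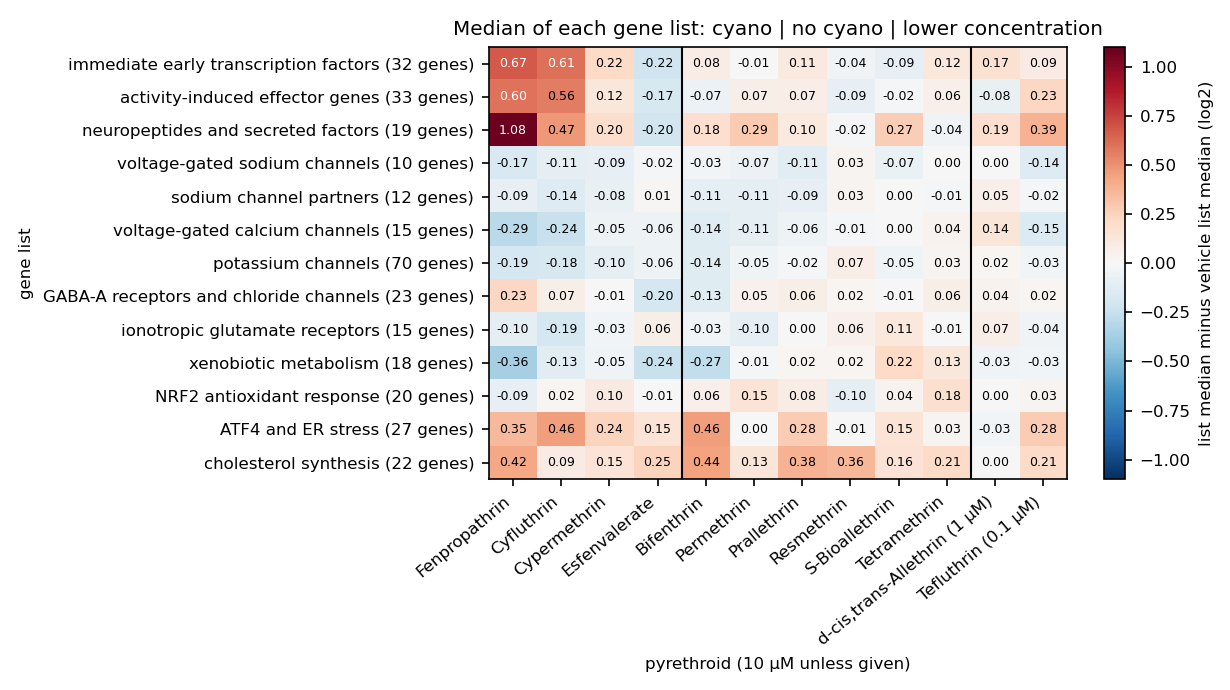
Median over the measured genes of each list in each pyrethroid library minus the same median in vehicle libraries, on the log2 scale (colour and number), with compounds in columns and lists in rows. Activity lists are red for fenpropathrin and cyfluthrin and blue for esfenvalerate, while the cholesterol list is above vehicle in all 10 compounds at 10 µM.

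Markers of cell types were examined beside these results. Of 12 general neuron markers, Rbfox3 and Dcx were lower over the 10 compounds in limma (-0.36, adjusted p = 0.00272, and -0.16, adjusted p = 0.0211). Of 9 excitatory markers Neurod2 and Bcl11b were lower (-0.27, adjusted p = 0.00162, and -0.21, adjusted p = 0.006). Over all genes 3.18% were lower and 1.66% higher. In the other chemicals 3 of the 12 neuron markers and 1 of the 9 excitatory ones were lower than vehicle. Against those chemicals 0 neuron markers and 1 excitatory marker were lower with the pyrethroids. The excitatory list median was below the vehicle median (0.025) in 10 of 10 libraries and below every vehicle library (lowest -0.14) in 4, namely S-Bioallethrin (-0.39), bifenthrin (-0.19), esfenvalerate (-0.17) and fenpropathrin (-0.16). In bulk RNA, fewer cells of a type and less RNA per cell cannot be told apart, and the part of cell composition in the results above was not tested. None of 12 inhibitory, 9 astrocyte, 7 oligodendrocyte, 9 mural and fibroblast, 8 cycling and 1 endothelial marker measured was called. Of 6 microglial markers measured Cd68 rose (0.94 ± 0.18, adjusted p = 0.00109) and the list median, -0.12, was below 0. In the other chemicals 1 of the 6 was higher than vehicle, and against them 0 passed for the pyrethroids. As levels are not recoverable, how abundant these markers were cannot be said.

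Set against the other 285 chemicals, each entered as the median of its libraries, the 10 pyrethroids differed in 145 genes (1.09%; 49 higher, 0.368%, and 96 lower, 0.722%). This comparison matters because the other chemicals themselves differed from vehicle in 698 genes (5.25%; 253 higher, 1.9%, and 445 lower, 3.34%), and the pyrethroid and chemical values below share the 49 vehicle libraries. Against the 247 other chemicals tested at 10 µM the count was 222 (1.67%), and those chemicals differed from vehicle in 631 genes (4.74%; 236 higher, 1.77%, and 395 lower, 2.97%). The genes named here were chosen after their values were seen, from those called against both vehicle and all other chemicals. Spred3, an inhibitor of Ras signalling, was 0.56 ± 0.14 higher than vehicle (adjusted p = 0.0137) where the other chemicals differed by -0.0022 ± 0.060. Etv5, a factor downstream of MAP kinases, was 0.66 ± 0.14 higher (adjusted p = 0.00198), with other chemicals at 0.12 ± 0.06. Its values were 1.80 with cyfluthrin and 1.64 with fenpropathrin, above the highest vehicle library (1.41).

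Gfra1, a receptor for GDNF, was 0.53 ± 0.17 higher (adjusted p = 0.0496), with 2.33 for fenpropathrin and 1.80 for cyfluthrin, and it was not called without either (adjusted p = 0.276 and 0.213). Nrsn1, a neuronal vesicle protein, was 0.62 ± 0.12 higher (adjusted p = 0.00089) and Sema3e, a secreted guidance cue, 0.55 ± 0.14 higher (adjusted p = 0.0149). Spred3 and Sema3e were likewise not called against vehicle without fenpropathrin (adjusted p = 0.083 and 0.106), whereas Etv5 and Nrsn1 were called whichever compound was left out. Among those lower, Sla, a Src-like adaptor, differed by -0.69 ± 0.16 (adjusted p = 0.00485) and was below the vehicle median in 10 of 10, with -2.50 for fenpropathrin. Itpka, a dendritic inositol phosphate kinase, differed by -0.54 ± 0.15 (adjusted p = 0.0292) and Crym, a thyroid hormone binding protein, by -0.72 ± 0.20 (adjusted p = 0.0226). The corresponding differences of the other chemicals from vehicle were -0.076 for Sla, -0.026 for Itpka and -0.00037 for Crym. Filip1, a regulator of filamin, was lowest with esfenvalerate (-1.68) and cyfluthrin (-1.52) and differed by -0.71 ± 0.14 (adjusted p = 0.00163).

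Compounds that differ in a named part of the molecule were then compared at 10 µM. All 45 pairs of the 10 compounds were fitted together with p-values adjusted over pairs and genes, each library was assumed to vary like a vehicle library, and 291 differences passed (0.0486% of those tested), of which 172 fell in the 9 pairs that contain fenpropathrin. The median unadjusted 95% interval reached 0.71 to either side of a difference, and the adjustment over all pairs asks for more than an interval that leaves out 0. Cypermethrin is permethrin with a cyano group, with the same acid, and 2 genes differed. They were Mcm3, a replication licensing gene, at -2.61 with cypermethrin and 1.66 with permethrin (difference -4.28, 95% interval -6.09 to -2.46, adjusted p = 0.0443), and 3010001F23Rik, at -0.23 and -3.25 (difference 3.03, 1.81 to 4.25, adjusted p = 0.0294). For Fos the difference between cypermethrin and permethrin was 0.39 (95% interval -1.51 to 2.29), for Fosb 1.79 (-0.37 to 3.95) and for Camk4 -0.41 (-0.82 to -0.0013, adjusted p = 0.737).

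The 4 cyano compounds all have a cyano phenoxybenzyl alcohol, which in cyfluthrin alone carries a fluorine on its ring. That fluorine is what distinguishes cyfluthrin from cypermethrin, and 2 genes were lower with cyfluthrin, Zbtb7c (-2.61, 95% interval -3.55 to -1.67, adjusted p = 0.0092) and Mcts2 (-1.85, -2.62 to -1.08, adjusted p = 0.0386). The other 3 share the alcohol and vary in the acid. Fenpropathrin, with a tetramethylated cyclopropane acid, differed from cypermethrin, with a dichlorovinyl one, in 5 genes. They included Baiap2, a postsynaptic actin organizer, with a difference of -1.43 (95% interval -1.95 to -0.91, adjusted p = 0.00919), and Igf1, with 1.58 (0.94 to 2.22, adjusted p = 0.0326). Esfenvalerate, whose acid has no cyclopropane ring, differed from cypermethrin in 6 genes. Fenpropathrin and esfenvalerate differed in 61 genes, 36 higher and 25 lower with fenpropathrin. In that pair Cartpt differed by 4.76 (2.78 to 6.74, adjusted p = 0.0374) and Ccbe1, an extracellular matrix gene, by -2.64 (-3.45 to -1.84, adjusted p = 0.00123).

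Pairs of compounds without a cyano group were compared in the same way. Prallethrin and S-Bioallethrin differ by a propargyl against an allyl side chain, and 0 genes differed by limma, as was the case for tetramethrin and S-Bioallethrin, which share the acid and differ in the alcohol. Resmethrin and tetramethrin, again with the same acid, differed in 1 gene, Pigx (-4.56, 95% interval -6.01 to -3.10, adjusted p = 0.00229). Resmethrin and S-Bioallethrin differed in Axl (-2.16, -3.0 to -1.31, adjusted p = 0.0241) and Galns (-1.84, -2.61 to -1.07, adjusted p = 0.0394). In view of the interval widths, none of these counts shows that a pair acted alike.

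Likeness of whole profiles was described by Spearman's rho over genes that vary in the screen. The 45 pairs at 10 µM had a median of 0.034, from -0.073 to 0.25, and 1176 pairs of vehicle libraries had a median of 0.022, from -0.20 to 0.18. The highest pyrethroid pair was fenpropathrin with cyfluthrin (0.25), and the other pairs of the cyano class had values between -0.037 and 0.10. The 15 pairs without a cyano group had a median of 0.017. Each library is set against the same gene medians, and genes are not independent replicates, so these values carry no test.

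**Figure D5:**
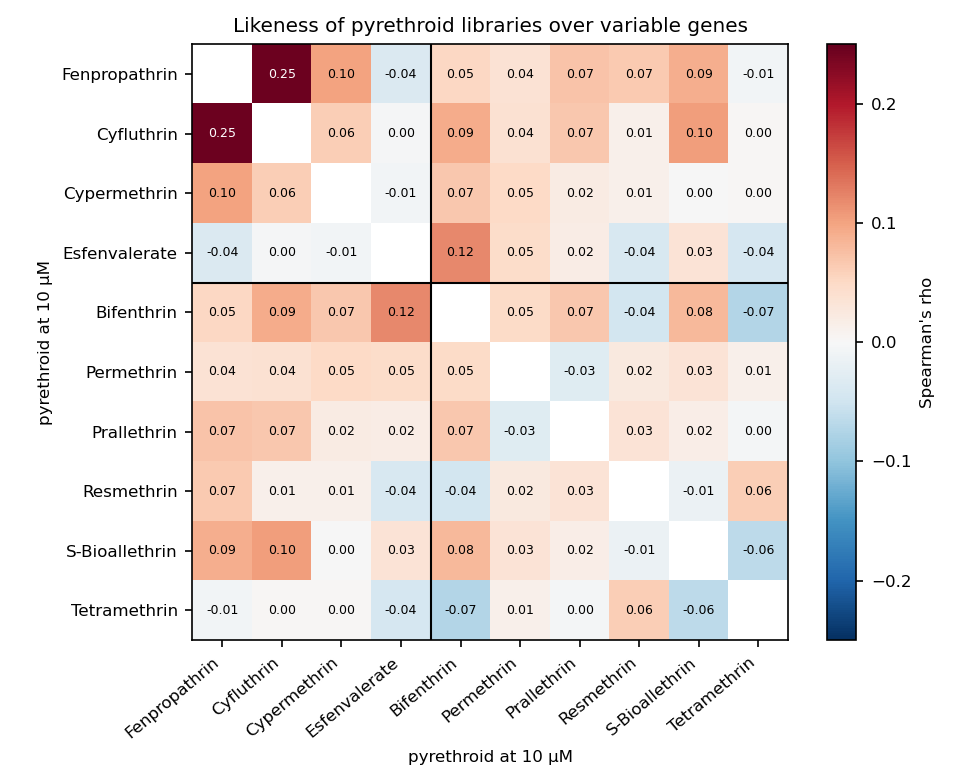
Spearman's rho over variable genes (colour and number) between libraries of the 10 pyrethroids at 10 µM, cyano compounds first, with lines dividing the classes. Fenpropathrin and cyfluthrin form the highest pair at 0.25, and the other values lie between -0.073 and 0.12.

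The 2 compounds at lower concentrations changed few genes. d-cis,trans-Allethrin at 1 µM and tefluthrin at 0.1 µM each changed 3 genes (0.0225% each), all lower. They included the ribosomal protein gene Rps12 with the former (-3.83 ± 0.74, adjusted p = 0.024), and Rps16 (-4.32 ± 0.77, adjusted p = 0.00623) and the microglial receptor gene Cx3cr1 (-2.62 ± 0.48, adjusted p = 0.00623) with the latter. All of the genes lower with d-cis,trans-Allethrin, and most of those lower with tefluthrin, had values below -2. Whether few reads lay behind these values was not tested. Vgf was at 1.55 with tefluthrin and 0.29 with d-cis,trans-Allethrin, and Atf3 at 0.98 and -0.99. Fos was at 0.36 and 0.16, within the range of the compounds without a cyano group at 10 µM. Because dose and compound changed together, these values are given beside the others without a comparison.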

How the data were processed

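The authors aligned reads to mm9 with TopHat, counted them over exons and deposited log10 values of RPKM after quantile normalisation, centring on gene medians and removal of batch effects by a mixed model. The labels give no batches, 3 vehicle samples outside this table were not used, and depth is unknown. Values were converted to log2 and fitted in R 4.3.3 with limma 3.58.1 (variance trend, Benjamini-Hochberg adjustment over 13304 genes, threshold 0.05). Both classes and vehicle shared 1 fit. Errors are standard errors of the fit, and p-values measure only the spread between these libraries. Likeness used genes with an SD above 0.1 on the log10 scale. The fit was tested on simulated data.

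Members and gene lists were chosen with earlier results of these data known. Named genes were fixed activity and sodium channel genes, the 10 largest rises and falls per class comparison, called list members (up to 10 per list) and the 3 largest rises and falls per compound or pair. Camk4, Sla, the markers, further list members in single libraries and genes from the comparison with other chemicals fall outside this rule and were chosen after their values were seen. Alternatives were a filter on variable genes, a stricter threshold, another normalisation, no variance trend, other references and leaving out compounds. Positions are from GENCODE on mm9, promoters from RefSeq. Results for some genes are not reported here.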

Additional observations from a re-analysis of the deposited data

Results flagged for a closer look

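The number of genes called against vehicle was 658 for fenpropathrin, far from the 5, 15 and 29 of the other cyano compounds (a gap test on 4 values). Among the 6 compounds without a cyano group, 3 gene values lay far from the rest in the same test. Arc was at -1.80 with S-Bioallethrin, Lgals3, a galectin of activated phagocytes, at 1.64 with prallethrin, and Atf3 at 1.16 with bifenthrin. The test was run on 64 groups of values and 4 stood out, where chance gives about 1 in 20.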

How the results depend on the processing

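The class counts depended on the settings more than single directions did. Keeping only variable genes (SD above 0.1), the counts against vehicle were 67 for the cyano class, 0 without a cyano group and 86 for the 10 compounds (48 higher and 38 lower), and with a threshold of 0.01 they were 121, 0 and 197. Against the other chemicals they were 171, 0 and 145, and against those at 10 µM 211, 2 and 222. Repeating the quantile normalisation gave 267 for the cyano class, and adding both lower concentrations gave 1 for the class without cyano. Leaving out 1 compound gave 4 to 732 genes for the cyano class, 0 to 51 without cyano, 276 to 793 for the 10 compounds and 0 to 22 between the classes. Without both fenpropathrin and cyfluthrin the counts were 3 for the cyano class, 2 between classes and 109 for the 10 compounds. The comparison with chemicals at 10 µM and the joint removal of those 2 compounds were chosen after seeing the data.

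Over single compounds the total of 810 became 514 when adjusted over all 12 together, 241 with variable genes alone and 392 after repeated normalisation, and the 291 pair differences became 766 when adjusted within each pair. Without both compounds the cyano difference from vehicle reversed for Ino80b (0.0254), F730043M19Rik (0.177) and Errfi1 (-0.0388), and the difference between classes for Fos (-0.358), Npas4 (-0.674), Nr4a1 (-0.0425), Bdnf (-0.151), Crh (-0.33) and Vgf (-0.462). For Npas4 it ran from -0.0787 without fenpropathrin to 1.02 without esfenvalerate. Over the 10 compounds Fosb reversed without both (-0.103) and Crh too (-0.203), Crh ran from -0.0182 to 0.46 with 1 compound left out, and Arc from -0.118 to 0.148, with 0.000869 when lower concentrations were added and 0.00776 against chemicals at 10 µM. The cause of these shifts was not tested beyond the compounds left out. No paired analysis was possible because each pyrethroid has 1 library and the labels match no vehicle library to a compound.

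Of 82 named genes called over the 10 compounds, 4 were called under every one of the 20 settings that included them. In the cyano class it was 1 of 54 (13 settings), and without cyano 0 of 7 (15 settings). Genes removed by the filter on variable genes were judged on the remaining settings. With 1 library for each compound, a compound cannot be told apart from its well, and read depth is unknown.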

Other observations

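For 8 of the 10 pyrethroids at 10 µM the most similar chemical of the screen was no pyrethroid, with 285 other chemicals to choose from. S-Bioallethrin was most like famoxadone (Spearman's rho 0.25), fenamidone (0.24) and fenpyroximate (0.23), which block the mitochondrial respiratory chain. Bifenthrin was most like fenamidone (0.188), emamectin benzoate (0.163) and pyraclostrobin (0.16), and esfenvalerate was most like fenamidone (0.16) and famoxadone (0.13). For permethrin the closest was fenpyroximate (0.0882), almost level with dichlorvos (0.0877). The closest was methylene bis(thiocyanate) for prallethrin (0.125), metiram-zinc for cypermethrin (0.115), MCPA for resmethrin (0.093) and chlorpyrifos-methyl for tetramethrin (0.0707). Pairs of vehicle libraries reached 0.175. Fenpropathrin and cyfluthrin had each other first (0.25), and both had metiram-zinc, a dithiocarbamate fungicide, among their closest (0.23 and 0.21). These are descriptions over genes of 1 library against the median of another chemical and carry no test.

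The lowest endothelial value in the pyrethroids came from bifenthrin, -2.0 for the only marker of that type measured, below the lowest vehicle library (-1.15), and prallethrin followed at -1.17. Microglial markers were highest with tetramethrin (list median 0.85, highest vehicle library 0.53), the compound with no gene called. Egr1 and Arc were lowest with S-Bioallethrin (-1.27 and -1.80) while Vgf was above the vehicle median there (1.04).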
